A study of Rattus norvegicus with 9 samples.

Results

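The collagen chains other than the cartilage collagens are the 40 genes of the rat count table whose symbol is Col, a type number, the letter a and a chain number, leaving out Col2a1, Col10a1, Col11a1 and Col11a2. They are 40 of 31125 gene rows, each symbol stood on 1 row, and all 40 are annotated as protein-coding. Bulk RNA was sequenced from femurs of male rats taken at day 7, with 3 libraries in each of 3 groups. GMTT femurs had an injury of the distal femoral growth plate and were treated with a hydrogel named GMTT; the series title names a GelMa/TPGS@Tea Polyphenols hydrogel. GPI femurs had the same injury and no hydrogel named in their label, and Sham femurs had sham surgery. The labels call the GPI and Sham femurs intact and the growth plate of the GMTT femurs intact, and give no strain, age or genetic change. They do not tell how cleanly the bones were freed of soft tissue or whether a library is 1 animal or a pool, so a p-value here speaks of library-to-library spread alone.

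Collagens are trimers of alpha chains wound into a helix of glycine-rich repeats. Fibrillar collagens form the banded fibrils that carry tension in bone, tendon and scar, and the FACIT collagens (fibril-associated collagens with interrupted triple helices) decorate the surface of those fibrils. Type IV chains build the sheet under epithelium, endothelium and around muscle fibres, type VI forms beaded filaments between cells and fibrils, and others span the plasma membrane or link basement membranes to the matrix. In bone, type I collagen is the main organic scaffold for mineral, while type III is known as an early collagen of wound and fracture repair.

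Pairs of type IV genes lie head to head and share the ground between their starts. The type VI genes Col6a6, Col6a5 and Col6a4 lie in a row and went different ways in the values below. Windows around starts of these genes are therefore shown first (250 bases before to 50 after each start, from RefSeq, build GRCr8). Of the 40 chains 32 had an entry, and Col1a1, Col3a1, Col6a2, Col9a3, Col12a1, Col14a1, Col22a1 and Col25a1 are named only. The first entry was used where a symbol had more than 1. For Col4a1 (chr16:84885347-84885646, plus strand) the capitals mark the 176 bases that the Col4a2 window holds too, on the other strand, with the annotated starts 77 bases apart. For Col4a3 (chr9:91323740-91324039, plus strand) the capitals mark the 88 bases shared with the Col4a4 window, and those starts lie 413 bases apart.
Col4a1: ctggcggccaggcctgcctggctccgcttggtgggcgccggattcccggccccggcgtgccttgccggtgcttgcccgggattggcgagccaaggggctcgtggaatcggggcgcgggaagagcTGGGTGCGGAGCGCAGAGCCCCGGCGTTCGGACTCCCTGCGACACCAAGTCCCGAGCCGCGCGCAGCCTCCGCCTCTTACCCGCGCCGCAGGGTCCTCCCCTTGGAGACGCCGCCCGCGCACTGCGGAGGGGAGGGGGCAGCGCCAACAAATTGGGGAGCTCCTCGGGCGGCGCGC
Col4a3: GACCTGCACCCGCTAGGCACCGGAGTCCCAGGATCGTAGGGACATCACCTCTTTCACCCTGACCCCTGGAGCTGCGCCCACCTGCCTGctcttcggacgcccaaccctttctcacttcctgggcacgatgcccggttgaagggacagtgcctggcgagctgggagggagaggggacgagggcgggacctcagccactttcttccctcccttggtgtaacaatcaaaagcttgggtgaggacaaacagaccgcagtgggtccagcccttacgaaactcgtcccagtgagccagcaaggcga
For Col6a6 (chr8:115352112-115352411, minus strand), Col6a5 (chr8:115462795-115463094, minus strand) and Col6a4 (chr8:115611792-115612091, minus strand) the capitals mark matches, on either strand, to the TATA box core TATAAA, the CCAAT box or the GC box GGGCGG, and no match overlaps another.
Col6a6: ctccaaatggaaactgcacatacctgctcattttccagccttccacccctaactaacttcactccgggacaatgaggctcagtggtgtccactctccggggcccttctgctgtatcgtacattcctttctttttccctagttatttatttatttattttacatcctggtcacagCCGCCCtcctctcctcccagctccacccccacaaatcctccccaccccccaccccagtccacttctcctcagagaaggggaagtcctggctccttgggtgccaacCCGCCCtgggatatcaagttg
Col6a5: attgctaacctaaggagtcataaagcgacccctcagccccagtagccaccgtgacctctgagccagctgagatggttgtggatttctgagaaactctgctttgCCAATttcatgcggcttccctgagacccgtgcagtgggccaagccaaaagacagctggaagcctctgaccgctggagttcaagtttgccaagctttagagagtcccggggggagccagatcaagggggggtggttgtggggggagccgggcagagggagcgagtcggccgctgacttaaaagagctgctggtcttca
Col6a4: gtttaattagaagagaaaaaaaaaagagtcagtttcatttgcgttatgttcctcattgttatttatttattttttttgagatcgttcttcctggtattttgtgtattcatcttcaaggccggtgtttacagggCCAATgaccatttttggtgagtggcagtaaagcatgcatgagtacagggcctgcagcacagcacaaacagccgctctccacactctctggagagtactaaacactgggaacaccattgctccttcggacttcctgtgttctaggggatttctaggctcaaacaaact
Among windows of this length over all genes, 34.9% held the GC box, 37.7% the CCAAT box and 14.3% the TATA box core. Of the 32 collagen windows, 17 held the GC box, 9 the CCAAT box and 3 the TATA box core (Col1a2, Col13a1 and Col17a1). The Col6a6 window held 2 GC boxes and no CCAAT box, while the Col6a5 and Col6a4 windows held 1 CCAAT box each and no GC box. The motifs were picked after the expression values were known, and a match is a run of letters, not a shown binding site.

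Libraries held 15927429 to 19715997 counts. Levels below are TMM-scaled FPKM: counts divided by gene length and by the library size after TMM adjustment, in FPKM units. Differences were tested by quasi-likelihood in edgeR, with p-values adjusted (Benjamini-Hochberg) over 15936 genes and called below 0.05. GPI libraries differ so much in make-up that the scale matters: on TMM the all-gene median log2 fold change was -0.19 in GPI against Sham and 0.12 in GMTT against GPI. Scaling by library sizes only put these medians at -1.28 and 1.22, shifts of -1.09 and 1.10, and shifted the one in GMTT against Sham by 0.01. Each direction that turns with library sizes only is given with that value. The 9 matched skeletal muscle markers of 10 listed took 1.83% to 1.97% in GMTT, 8.72% to 9.24% in GPI and 0.198% to 0.212% in Sham of all counts, and the 9 osteoblast and osteocyte markers took 0.0817% to 0.0842% in GMTT, 0.0133% to 0.0142% in GPI and 0.115% to 0.122% in Sham. The 8 neutrophil markers took 1.05% to 1.10% in GMTT, 0.000480% to 0.000558% in GPI and 0.888% to 0.958% in Sham, and none of these 3 lists had a member at 0 over a whole group. Their part in the collagen values below was not tested, and in bulk tissue fewer cells of a type and less RNA per cell cannot be told apart.

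On the TMM scale the collagen chains as a set stood higher in both injured groups than in Sham. The chains summed to 2798 ± 106 in GMTT, 2827 ± 74.1 in GPI and 1629 ± 58.3 in Sham (TMM-scaled FPKM, SD, n = 3 each), and they took 1.98% ± 0.0867 in GMTT, 0.954% ± 0.0256 in GPI and 1.14% ± 0.0376 in Sham of all counts. On the first measure GMTT and GPI overlapped and both lay above Sham, while on the second GPI was lowest. Of the 40 chains, 38 passed the low-count filter and were tested. In GPI against Sham 30 rose and 3 fell, against 40.1% and 48.1% of all genes (88.2% in either direction). Between GMTT and GPI 8 rose and 26 fell, against 45.7% and 40.2% of all genes (85.9% in either direction). Between GMTT and Sham 28 rose and 4 fell, against 29.5% and 28.3% of all genes (57.8% in either direction). With library sizes only the splits were 23 higher and 9 lower in GPI against Sham (all genes 22.1% and 70.3%), 20 higher and 14 lower in GMTT against GPI (all genes 72.2% and 18.9%), and again 28 and 4 in GMTT against Sham (all genes 30.1% and 27.4%). The 3 comparisons share their groups, so they are not independent of one another.

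Chains were also set against the median of all genes. A change of scale moves all genes of a comparison by nearly the same amount. The number of chains above or below that median could therefore hardly change, and it was the same with TMM, median of ratios and library sizes only. For GPI against Sham the median chain had a log2 fold change of 1.80 against -0.19 for all genes (0.71 against -1.28 with library sizes only), and 35 of 38 chains lay above that median. In GMTT against GPI the median chain was at -0.68 against 0.12, which turned to 0.42 against 1.22 with library sizes only, and 28 of 38 lay below. In GMTT against Sham it was at 0.96 against 0.00, and 30 of 38 lay above. By group means on the TMM scale, 23 tested chains ran from GPI down through GMTT to Sham, and 7 were highest in GMTT and lowest in Sham (Col1a1, Col1a2, Col16a1, Col5a3, Col8a2, Col27a1 and Col6a5). Another 4 were highest in GPI and lowest in GMTT (Col4a3, Col20a1, Col9a2 and Col9a3), and 4 were highest in Sham (Col13a1, Col17a1, Col6a4 and Col25a1). These orders are of means only, and several neighbours in them were not separated by the test, as given below. They also depend on the scale. With library sizes only the direction between GMTT and GPI turned for Col3a1, Col12a1 and others. Between GPI and Sham it turned for Col1a1, Col1a2, Col8a2, Col27a1, Col6a5 and others, all listed in the closing section. The share of all genes in each order was not counted.

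**Figure D1:**
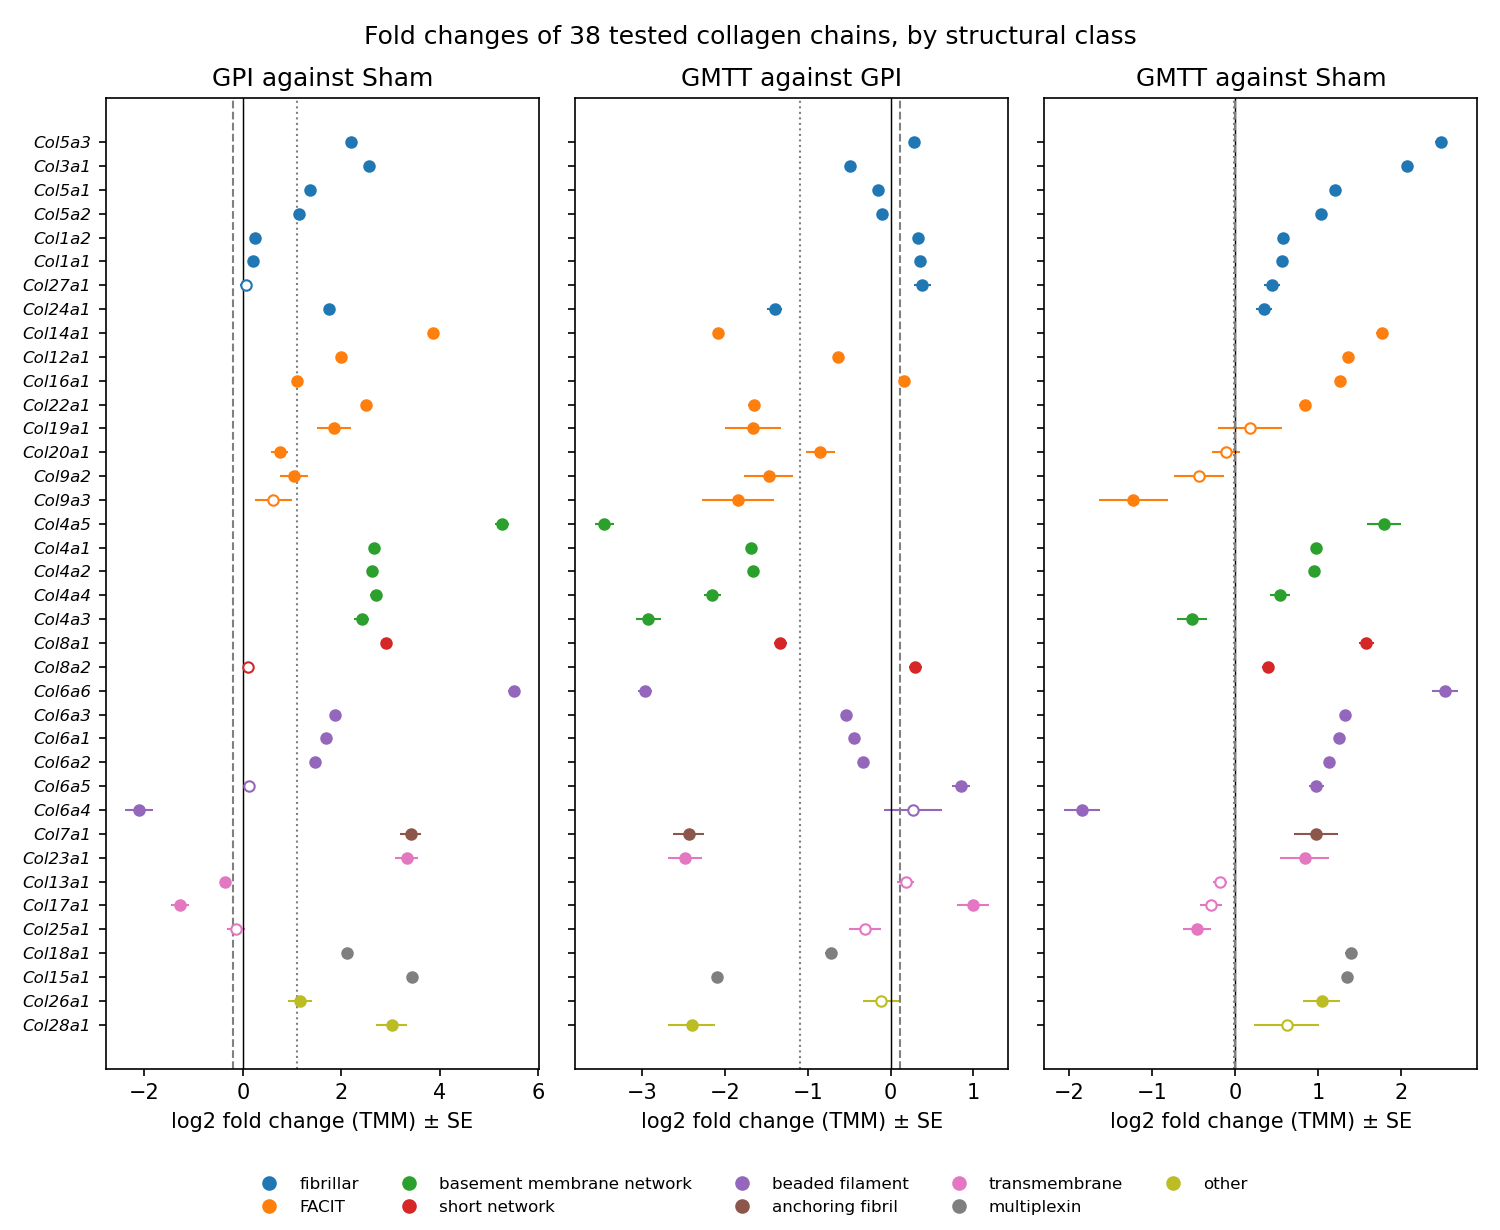
Log2 fold change on the TMM scale (horizontal axis, bar: SE) of the 38 tested chains, one row a chain and one colour a structural class, in the 3 comparisons; filled points passed the test. The dashed line is the median of all genes and the dotted line is where a fold change of 0 with library sizes only would fall. In GMTT against Sham both lie at 0 and 28 chains are filled to the right of it (29.5% of all genes were called higher).

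By level per length Col1a1, Col1a2 and Col3a1 ranked 1, 2 and 3 in GMTT, in GPI and in Sham. Col4a1 ranked 7 in GMTT, 4 in GPI and 6 in Sham, at 40.5 ± 0.791, 130.3 ± 0.488 and 20.6 ± 0.309 FPKM (SD, n = 3 each), and Col14a1 ranked 20, 13 and 21 in the same order of groups. In GMTT the chains of rank 4 and 5, Col6a1 at 61.7 ± 4.31 and Col5a2 at 58.7 ± 1.91 FPKM, did not differ beyond their spread. The coefficient of variation within a group had a median of 4.48% in GMTT, 2.50% in GPI and 3.39% in Sham over the chains at 10 FPKM or more, which were 14, 18 and 10 chains. Below 1 FPKM, where the spread was wider, lay 17 chains in GMTT, 11 in GPI and 18 in Sham. Set against Col1a1 in the same contrast, 30 of the other 37 tested chains had the higher log2 fold change in GPI against Sham, 3 in GMTT against GPI (Col17a1, Col6a5 and Col27a1) and 24 in GMTT against Sham, a comparison that scaling between libraries leaves as it is. The share of all genes above Col1a1 was not counted. On the TMM scale the all-gene median itself lay below Col1a1. It was -0.19 against 0.21 in GPI against Sham, 0.12 against 0.35 in GMTT against GPI and 0.00 against 0.57 in GMTT against Sham.

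Type I collagen, the scaffold of bone, made up most of the pool in every library but held the smallest share in GPI. Col1a1 (ENSRNOG00000003897, mRatBN7.2 chromosome 10, 79883622 to 79900624) had 1193, 1224 and 1121 FPKM in GMTT, 915, 950.2 and 906 in GPI, and 799, 759.8 and 829.6 in Sham. The groups did not overlap, with GMTT highest and Sham lowest. Its log2 fold change was 0.57 (SE 0.04) in GMTT against Sham and 0.35 (SE 0.04) in GMTT against GPI. Between GPI and Sham it was 0.21 (SE 0.04) on the TMM scale but -0.88 with library sizes only. Its partner chain Col1a2 (ENSRNOG00000011292, chromosome 4, 32563381 to 32598867) had 843, 851 and 781 FPKM in GMTT, 659, 683 and 632 in GPI, and 562, 535 and 568 in Sham. The second chain moved as the first did, by 0.57 in GMTT against Sham, 0.33 in GMTT against GPI and 0.25 in GPI against Sham (SE 0.04 each), the last turning to -0.85 with library sizes only. Both chains together held 71.6% ± 0.523 in GMTT, 56.0% ± 0.271 in GPI and 82.9% ± 0.219 in Sham of the summed collagen level (SD, n = 3 each), a share that does not depend on the scale.

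Type III collagen, which forms thin fibrils with type I in repairing and elastic tissues, shifted further than type I. Col3a1 (ENSRNOG00000003357, chromosome 9, 47374593 to 47410547) had 394, 396 and 389 FPKM in GMTT, 555, 568 and 532 in GPI, and 95.2, 92.3 and 94.0 in Sham. The GPI libraries were highest, GMTT came next and Sham was far below, with no overlap. It rose by 2.56 (SE 0.04) in GPI against Sham and by 2.07 (SE 0.04) in GMTT against Sham. Against GPI, GMTT stood at -0.49 (SE 0.04), a direction that turned to 0.61 with library sizes only. Col3a1 made up 13.8% to 14.5% in GMTT, 19.3% to 19.6% in GPI and 5.59% to 5.89% in Sham of the summed collagen level.

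The ratio of Col3a1 to Col1a1 within a library is free of the scaling between libraries. In counts per length it was 0.330, 0.324 and 0.347 in GMTT, 0.606, 0.598 and 0.587 in GPI, and 0.119, 0.122 and 0.113 in Sham. All 3 groups were separate, and GMTT lay between GPI and Sham. The log2 ratio differed by 2.34 in GPI against Sham, -0.84 in GMTT against GPI and 1.50 in GMTT against Sham. The exact permutation test (2-sided) gave p = 0.1 for each, the smallest that 3 against 3 libraries allow, and 0.18 after Benjamini-Hochberg adjustment over the 18 ratio comparisons made.

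**Figure D2:**
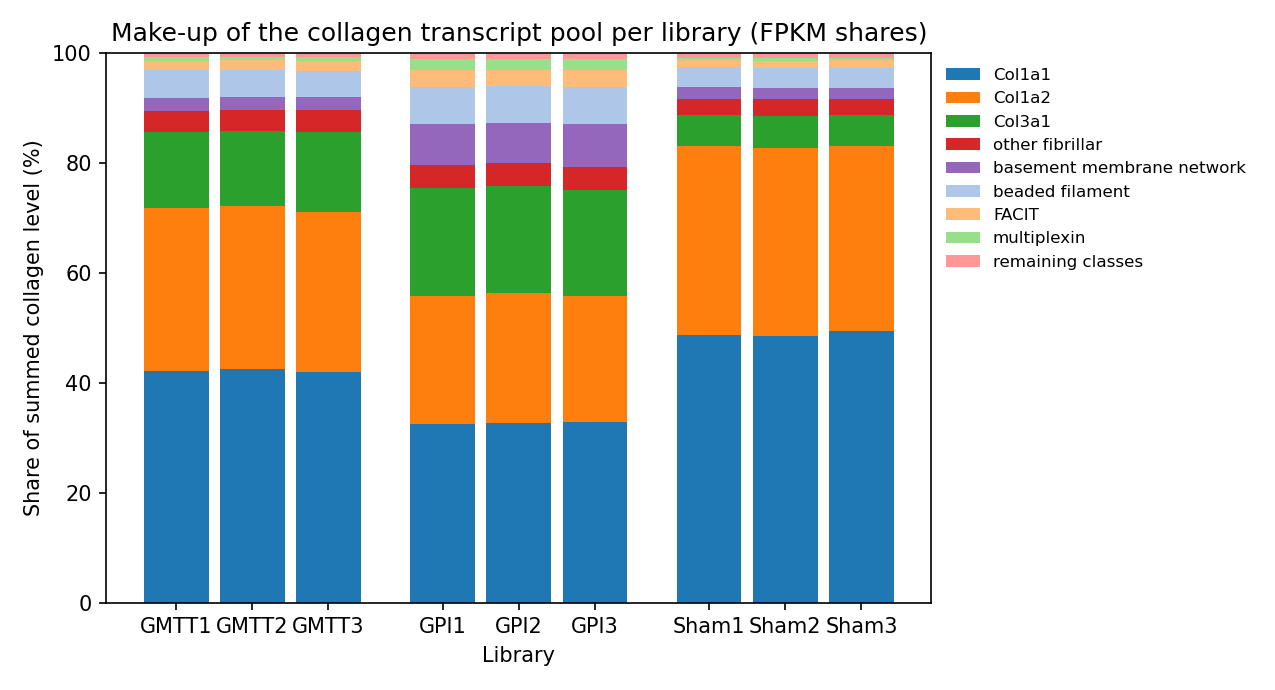
Share (%) of the summed TMM-scaled FPKM of the 40 chains held by single fibrillar chains and by structural classes, one stacked bar a library. Col1a1 and Col1a2 fill 71.6% of the bar in GMTT, 56.0% in GPI and 82.9% in Sham on average, and the Col3a1 and basement membrane parts are widest in GPI.

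Type V collagen starts type I fibrils and limits their width. Its chain Col5a3 had 14.0, 13.4 and 12.4 FPKM in GMTT, 10.8, 11.1 and 11.0 in GPI, and 2.47, 2.19 and 2.52 in Sham. Both injured groups were far above Sham and GMTT was above GPI without overlap. Col5a3 rose by 2.47 (SE 0.07) in GMTT against Sham, by 2.20 (SE 0.07) in GPI against Sham and by 0.28 (SE 0.06) in GMTT against GPI. The main type V chains Col5a1 and Col5a2 rose by 1.20 and 1.03 in GMTT against Sham, and by 1.35 and 1.14 in GPI against Sham, where Col5a2 was no longer called with library sizes only (0.05). In GMTT against GPI both were slightly lower, at -0.16 (SE 0.05) and -0.11 (SE 0.04), and turned to 0.95 and 0.99 with library sizes only. The Col5a1 call was lost with limma on log2(FPKM + 0.1), at adjusted p = 0.0741, and the Col5a2 call with that test and with no low-count filter. The Col5a2 call was also lost without GPI replicate 1 (-0.10) or 2 (-0.10) or GMTT replicate 1 (-0.09) or 2 (-0.09). Of the low fibrillar chains, Col24a1, known from bone of mouse embryos, rose by 1.75 (SE 0.09) in GPI against Sham and by 0.34 (SE 0.10) in GMTT against Sham, and fell by 1.40 (SE 0.09) in GMTT against GPI. Col27a1, a chain of growth cartilage, had 1.68, 1.60 and 1.72 FPKM in GMTT, 1.18, 1.38 and 1.28 in GPI, and 1.19, 1.30 and 1.17 in Sham. GPI and Sham overlapped, and Col27a1 was not called between them (0.06, SE 0.11, adjusted p = 0.602 by edgeR; -1.03 and called with library sizes only), while it rose by 0.38 in GMTT against GPI and 0.45 in GMTT against Sham. In all, 8 of 8 fibrillar chains rose in GMTT against Sham (29.5% of all genes). In GPI against Sham 7 of 8 rose on the TMM scale (40.1% of all genes), and 4 rose and 3 fell with library sizes only (22.1% and 70.3%).

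Of the 8 tested FACIT chains 7 rose in GPI against Sham (40.1% of all genes), or 4 with library sizes only (22.1%). Between GMTT and Sham 4 rose and 1 fell (29.5% and 28.3% of all genes), and between GMTT and GPI 1 rose and 7 fell (45.7% and 40.2%), or 2 and 2 with library sizes only (72.2% and 18.9%). Col12a1 (ENSRNOG00000058470, chromosome 8, 80547593 to 80665686), which coats type I fibrils in tendon, ligament and periosteum, had 24.0, 25.0 and 24.3 FPKM in GMTT, 38.5, 36.8 and 38.5 in GPI, and 9.80, 9.57 and 9.21 in Sham. The groups did not overlap. Col12a1 rose by 1.99 (SE 0.05) in GPI against Sham and by 1.36 (SE 0.05) in GMTT against Sham, and its -0.64 (SE 0.04) in GMTT against GPI turned to 0.47 with library sizes only. Its relative Col14a1 had 4.34, 4.51 and 4.59 FPKM in GMTT, 18.6, 19.1 and 19.2 in GPI, and 1.36, 1.31 and 1.27 in Sham. The gap between the groups was wider than for Col12a1: Col14a1 rose by 3.85 (SE 0.07) in GPI against Sham and by 1.77 (SE 0.07) in GMTT against Sham, and fell by 2.08 (SE 0.06) in GMTT against GPI. Col22a1, a chain of tissue borders such as the muscle to tendon junction, had mean levels of 4.98 ± 0.0852 in GMTT, 15.7 ± 0.560 in GPI and 2.79 ± 0.333 in Sham. It rose by 2.49 in GPI against Sham and 0.84 in GMTT against Sham, and fell by 1.66 in GMTT against GPI.

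Col16a1, a minor FACIT, had 15.8, 15.6 and 14.3 FPKM in GMTT, 14.1, 13.5 and 13.2 in GPI, and 6.22, 5.95 and 6.85 in Sham. GMTT was highest and Sham lowest. It rose by 1.26 (SE 0.06) in GMTT against Sham, was 1.10 in GPI against Sham (0.01 and not called with library sizes only) and 0.16 (SE 0.06) in GMTT against GPI, a call that was lost without GPI replicate 3 (0.14, adjusted p = 0.0561 by edgeR), with at least 5 CPM in 3 libraries and with limma on log2(FPKM + 0.1). Type IX collagen, which sits on the type II fibrils of cartilage and was kept by the rule that chose the chains, was low throughout. Col9a1 had 5 counts over the GMTT libraries, 3 over GPI and 28 over Sham and was not tested; on the TMM scale the GMTT rate was 0.169 times that of Sham (95% counting interval 0.0509 to 0.443) and the GPI rate 0.205 times (0.0399 to 0.664). Such intervals cover counting error only. Col9a2 was 1.04 (SE 0.28) in GPI against Sham, which turned to -0.05 and lost its call with library sizes only, and fell by 1.47 in GMTT against GPI, a call also lost with library sizes only. Col9a3 had 0.0825, 0.119 and 0.0679 FPKM in GMTT, 0.327, 0.292 and 0.372 in GPI, and 0.227, 0.167 and 0.249 in Sham. It was 0.62 (SE 0.37) in GPI against Sham, where it was not called by edgeR (-0.46 with library sizes only) and was called by limma. Its levels rest on 4 to 14 counts a library; it fell by 1.23 (SE 0.41) in GMTT against Sham, a call lost without GMTT replicate 3 (-1.06) or Sham replicate 3 (-1.10) and with DESeq2, and by 1.85 in GMTT against GPI, a call lost with library sizes only. Col19a1, with 4 to 24 counts a library, rose by 1.85 in GPI against Sham and fell by 1.67 in GMTT against GPI (not called with library sizes only). Col20a1 was 0.75 in GPI against Sham, turning to -0.34 with library sizes only, and -0.85 in GMTT against GPI, turning to 0.25; neither chain was called in GMTT against Sham.

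**Figure D3:**
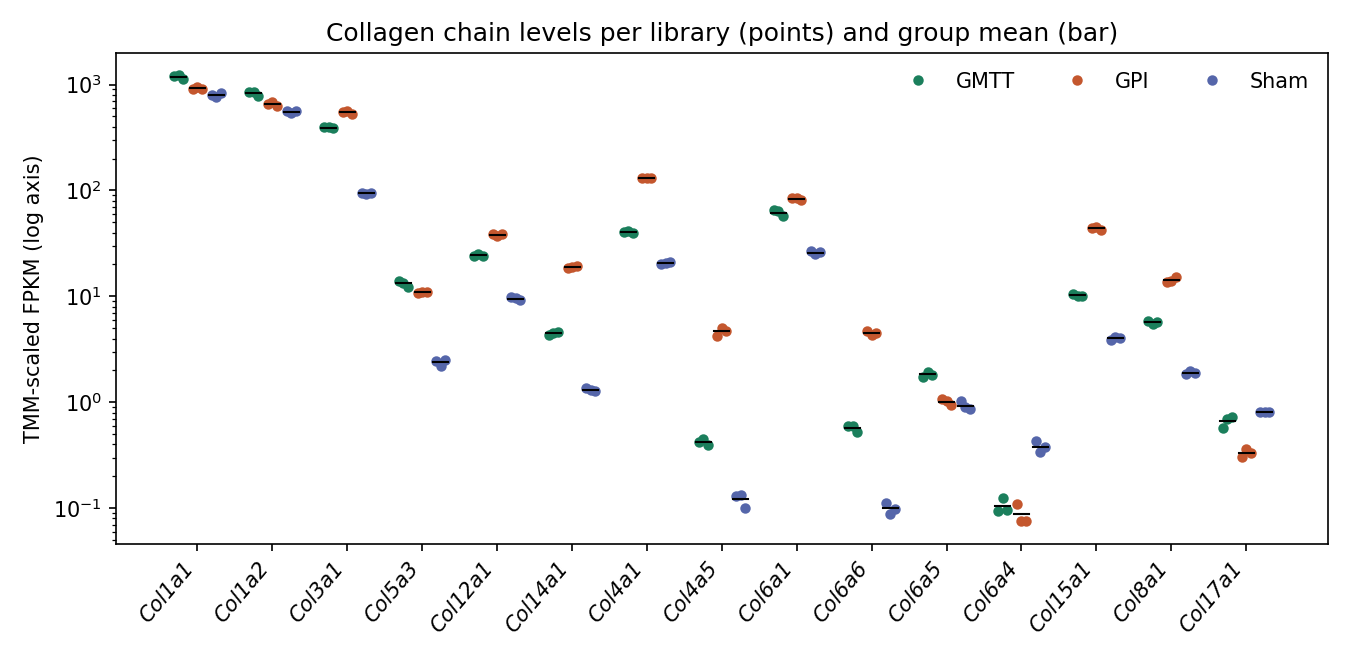
Level (TMM-scaled FPKM, log axis) of 15 chains in each library (points) with the group mean (bar), GMTT, GPI and Sham from left to right within a chain. Col1a1 spans 759.8 to 1224, while Col6a6 averages 0.572 in GMTT, 4.49 in GPI and 0.0993 in Sham.

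The basement membrane chains rose together in GPI. Col4a1 and Col4a2, which form the network found under nearly all epithelium and endothelium and around muscle fibres, lie head to head on chromosome 16 (mRatBN7.2 78183533 to 78294412 on the plus strand and 78047602 to 78183839 on the minus strand), and their gene models in that build overlap by 307 bases. In the RefSeq GRCr8 entries their starts lie 77 bases apart and point away from each other, so the annotations differ here. Col4a1 had 40.7, 41.1 and 39.6 FPKM in GMTT, 130.3, 131 and 129.8 in GPI, and 20.3, 20.5 and 20.9 in Sham. Col4a2 had 22.9, 23.7 and 22.0 FPKM in GMTT, 73.5, 72.3 and 72.0 in GPI, and 12.0, 11.2 and 12.3 in Sham. Neither gene had overlapping groups, with GPI highest and Sham lowest. They rose by 2.66 and 2.62 in GPI against Sham and by 0.97 and 0.95 in GMTT against Sham, and fell by 1.69 and 1.67 in GMTT against GPI (SE 0.04 to 0.05). These 6 values kept their direction and call with library sizes only. The ratio of Col4a2 to Col4a1 was 0.565 ± 0.0108 in GMTT, 0.557 ± 0.00632 in GPI and 0.573 ± 0.0252 in Sham (SD, n = 3 each), and the groups overlapped in it. The counting program's strand setting is not given in the sources used here, and reads from the overlap could count for either gene.

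The minor type IV chains, best known from the kidney filter, were low, and Col4a5 had the largest fold changes of the 5 tested type IV chains in all 3 comparisons. Col4a5 on the X chromosome had 0.424, 0.450 and 0.395 FPKM in GMTT, 4.21, 5.08 and 4.72 in GPI, and 0.129, 0.134 and 0.0998 in Sham. It rose by 5.26 (SE 0.14) in GPI against Sham and by 1.79 (SE 0.21) in GMTT against Sham, and fell by 3.46 (SE 0.11) in GMTT against GPI. Its head to head neighbour Col4a6, 1320 bases away, was under the low-count filter, with 16 counts over the GMTT libraries, 36 over GPI and 2 over Sham; the GMTT rate was 7.57 times that of Sham (95% counting interval 1.78 to 67.9) and the GPI rate 34.5 times (8.87 to 296). Col4a3 had 0.265, 0.289 and 0.289 FPKM in GMTT, 2.25, 2.21 and 1.97 in GPI, and 0.349, 0.460 and 0.395 in Sham. GMTT lay below Sham in every library, unlike Col4a4, whose means were 0.817 ± 0.0624 in GMTT, 3.64 ± 0.155 in GPI and 0.562 ± 0.0445 in Sham. In GMTT against Sham Col4a3 fell by 0.52 (SE 0.19) and Col4a4 rose by 0.54 (SE 0.12), although the mRatBN7.2 gene models of this pair on chromosome 9 overlap by 316 bases. In the RefSeq GRCr8 entries their starts lie 413 bases apart and point away from each other, so the annotations differ here. The Col4a3 call was lost with DESeq2, with limma on log2(FPKM + 1) and without Sham replicate 2 (-0.41) or GMTT replicate 1 (-0.48), and the difference between the genes was not tested. In GPI against Sham they rose by 2.41 and 2.70, and in GMTT against GPI they fell by 2.93 and 2.15. All 5 tested type IV chains rose in GPI against Sham (40.1% of all genes, or 22.1% with library sizes only). All 5 fell in GMTT against GPI (40.2% of all genes, or 18.9% with library sizes only). The muscle, mural, tendon and synovium, and adipocyte markers also took their largest share of the counts in GPI. Their part in the type IV values was not tested.

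The multiplexins, proteoglycans of basement membranes, followed the type IV chains. Col15a1, of the muscle and capillary basement membrane, had 10.6, 10.1 and 10.1 FPKM in GMTT, 44.0, 44.7 and 42.6 in GPI, and 3.88, 4.13 and 4.07 in Sham. No groups overlapped. It rose by 3.44 (SE 0.06) in GPI against Sham and 1.35 (SE 0.06) in GMTT against Sham, and fell by 2.09 (SE 0.05) in GMTT against GPI. Col18a1, the source of endostatin, had 7.37, 7.41 and 6.82 FPKM in GMTT, 12.1, 12.5 and 11.0 in GPI, and 2.81, 2.45 and 3.00 in Sham. It rose by 2.11 (SE 0.07) in GPI against Sham and 1.39 (SE 0.07) in GMTT against Sham, while its -0.72 in GMTT against GPI turned to 0.38 with library sizes only. The basement membrane class held 2.32% ± 0.0353 in GMTT, 7.56% ± 0.164 in GPI and 2.06% ± 0.0318 in Sham of the summed collagen level, and the multiplexins 0.624% ± 0.0139 in GMTT, 1.97% ± 0.0204 in GPI and 0.416% ± 0.00721 in Sham (SD, n = 3 each). The 6 endothelial markers took 0.0474% to 0.0515% in GMTT, 0.0458% to 0.0471% in GPI and 0.0366% to 0.0380% in Sham of the counts. Taken singly, 5 rose and 1 fell in GPI against Sham (40.1% and 48.1% of all genes), also with library sizes only (22.1% and 70.3%). Between GMTT and GPI 1 rose and 5 fell (45.7% and 40.2%), or 1 and 4 with library sizes only (72.2% and 18.9%). The 5 mural cell markers took 0.0543% to 0.0571% in GMTT, 0.213% to 0.228% in GPI and 0.0197% to 0.0204% in Sham of the counts. The part of both lists in these values was not tested.

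Type VIII collagen forms a short-chain lattice beneath the endothelium and in the cornea. Col8a1 had 5.83, 5.52 and 5.72 FPKM in GMTT, 13.8, 14.0 and 15.2 in GPI, and 1.84, 1.96 and 1.90 in Sham. Col8a2 had 7.73, 6.78 and 6.85 FPKM in GMTT, 5.58, 6.19 and 5.62 in GPI, and 5.00, 5.53 and 5.71 in Sham. The groups were separate for Col8a1, while GPI and Sham overlapped for Col8a2. Col8a1 rose by 2.91 (SE 0.09) in GPI against Sham and by 1.58 (SE 0.09) in GMTT against Sham, and fell by 1.33 in GMTT against GPI. Col8a2 was 0.10 (SE 0.08) in GPI against Sham (adjusted p = 0.242 by edgeR; -0.99 and called with library sizes only), and rose by 0.30 in GMTT against GPI and 0.39 in GMTT against Sham.

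The main type VI chains, filaments of muscle, cartilage and fibrous tissue, rose in both injured groups against Sham. Col6a1 had 64.9, 63.4 and 56.8 FPKM in GMTT, 84.0, 85.5 and 81.9 in GPI, and 26.7, 24.9 and 26.2 in Sham. Col6a2 had 44.4, 44.5 and 39.9 FPKM in GMTT, 54.1, 57.1 and 51.0 in GPI, and 19.6, 18.3 and 21.0 in Sham. Col6a3 averaged 31.4 ± 1.41 in GMTT, 45.5 ± 0.170 in GPI and 12.5 ± 0.304 in Sham (SD, n = 3 each). The injured groups were clear of Sham in all 3 chains. They rose by 1.69, 1.46 and 1.86 in GPI against Sham, and by 1.25, 1.13 and 1.33 in GMTT against Sham. In GMTT against GPI they stood at -0.44, -0.33 and -0.53, which turned to 0.66, 0.77 and 0.57 with library sizes only.

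The other type VI chains lie in a row on the minus strand of chromosome 8 and parted from each other. In mRatBN7.2 they are Col6a6 (106306422 to 106473472), Col6a5 (106483799 to 106584113) and Col6a4 (106617050 to 106733263), with gaps of 10327 and 32937 bases. Col6a6 had 0.592, 0.602 and 0.523 FPKM in GMTT, 4.72, 4.28 and 4.47 in GPI, and 0.112, 0.0880 and 0.0975 in Sham. It rose by 5.50 (SE 0.12) in GPI against Sham, the highest fold change of the 38 chains, and by 2.53 (SE 0.15) in GMTT against Sham, and fell by 2.97 (SE 0.09) in GMTT against GPI. Col6a5 had 1.73, 1.94 and 1.81 FPKM in GMTT, 1.08, 1.02 and 0.939 in GPI, and 1.02, 0.895 and 0.870 in Sham. Here GMTT was above both other groups, which overlapped: Col6a5 rose by 0.85 (SE 0.11) against GPI and by 0.98 (SE 0.09) against Sham, and was 0.13 (SE 0.12) in GPI against Sham (adjusted p = 0.288 by edgeR; -0.96 and called with library sizes only). Col6a4 had 0.0942, 0.126 and 0.0969 FPKM in GMTT, 0.110, 0.0764 and 0.0751 in GPI, and 0.432, 0.338 and 0.376 in Sham. Every Sham library was above every GMTT and GPI library; Col6a4 fell by 2.11 (SE 0.28) in GPI against Sham and by 1.84 (SE 0.22) in GMTT against Sham, and GMTT and GPI overlapped (0.27, SE 0.35, adjusted p = 0.477 by edgeR; 1.36 and called with library sizes only). How reads that match several of these related genes were counted is not given in the sources used here.

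Ratios of 5 other chain pairs, each from 1 collagen type, were taken within libraries in the same way. The ratio of Col1a2 to Col1a1 was 0.700 ± 0.00596 in GMTT, 0.712 ± 0.0128 in GPI and 0.697 ± 0.0112 in Sham (SD, n = 3 each), with overlapping groups and log2 differences of 0.03 in GPI against Sham, -0.03 in GMTT against GPI and 0.00 in GMTT against Sham. Col5a2 over Col5a1 was 1.75 ± 0.155 in GMTT, 1.69 ± 0.0133 in GPI and 1.96 ± 0.172 in Sham, and Col6a2 over Col6a1 was 0.696 ± 0.0108 in GMTT, 0.645 ± 0.0231 in GPI and 0.758 ± 0.0387 in Sham. Col6a3 over Col6a1 was 0.510 ± 0.0134 in GMTT, 0.543 ± 0.0103 in GPI and 0.483 ± 0.00601 in Sham. The type VI ratios did not overlap between any groups, and Col5a2 over Col5a1 did not overlap in GPI against Sham. The log2 differences of these 3 ratios were at most 0.23 in size, against 2.34 for Col3a1 over Col1a1 in GPI against Sham. Other chains of 1 type parted further: Col4a3, Col4a4 and Col4a5 stood at -0.52, 0.54 and 1.79 in GMTT against Sham, and Col5a3 at 2.47 beside 1.20 for Col5a1. Differences between these chains were not tested. In the exact permutation test none of the 18 ratio comparisons could go below p = 0.1.

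**Figure D4:**
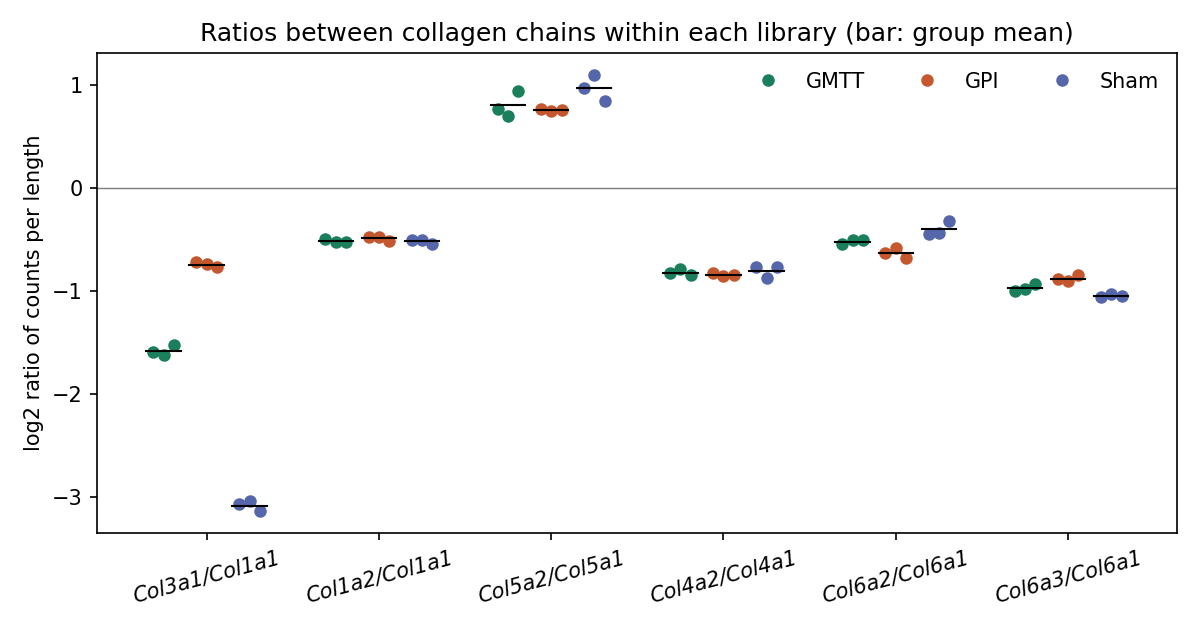
Log2 ratio of counts per length of 6 chain pairs in each library (points) with the group mean (bar), GMTT, GPI and Sham from left to right. Only the ratio of Col3a1 to Col1a1 spreads over more than 1 log2 unit between groups, at a mean of -1.58 in GMTT, -0.74 in GPI and -3.08 in Sham.

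Chains that anchor or span membranes did not move as one, and all but Col13a1 were low. Col7a1, the anchoring fibril of the skin's basement membrane, had 0.190, 0.124 and 0.138 FPKM in GMTT, 0.799, 0.811 and 0.856 in GPI, and 0.106, 0.0517 and 0.0748 in Sham, from 11 to 89 counts a library. It rose by 3.41 (SE 0.21) in GPI against Sham and by 0.97 (SE 0.27) in GMTT against Sham, and fell by 2.44 (SE 0.19) in GMTT against GPI. The call in GMTT against Sham was lost with limma on log2(FPKM + 1), at adjusted p = 0.102. Of 4 epidermal markers 3 were matched and took 0.000172% to 0.000199% in GMTT, 0.000199% to 0.000299% in GPI and 0.000106% to 0.000159% in Sham of the counts, and Krt5 and Dsg1 were too low to test. Col17a1, of the hemidesmosomes that fix epithelial cells to their base, had 0.570, 0.692 and 0.721 FPKM in GMTT, 0.304, 0.359 and 0.330 in GPI, and 0.812, 0.808 and 0.803 in Sham. It fell by 1.28 (SE 0.19) in GPI against Sham and rose by 0.99 (SE 0.19) in GMTT against GPI, and was -0.29 (SE 0.14) in GMTT against Sham (adjusted p = 0.0685 by edgeR). Col13a1, a membrane collagen of the neuromuscular junction, had 4.73, 5.29 and 4.69 FPKM in GMTT, 4.31, 3.93 and 4.75 in GPI, and 4.84, 5.76 and 6.07 in Sham. It fell by 0.37 (SE 0.10) in GPI against Sham and was not called in GMTT against GPI (0.18; 1.29 and called with library sizes only; 0.25 and called without GPI replicate 3; also called with no low-count filter) or GMTT against Sham (-0.18; called without GMTT replicate 2, at -0.24, or Sham replicate 1, at -0.27). Col23a1 had 0.433, 0.386 and 0.297 FPKM in GMTT, 2.26, 1.99 and 2.05 in GPI, and 0.314, 0.161 and 0.155 in Sham. It rose by 3.33 (SE 0.23) in GPI against Sham and fell by 2.49 in GMTT against GPI, and its 0.84 (SE 0.29) in GMTT against Sham, where the groups overlapped, lost its call without Sham replicate 2 (0.67) or 3 (0.67) or GMTT replicate 1 (0.71). Col25a1 fell by 0.46 (SE 0.16) in GMTT against Sham, a call lost with DESeq2, with limma and without Sham replicate 1 (-0.40) or 2 (-0.38) or GMTT replicate 1 (-0.41), and was not called in the other comparisons (-0.15 in GPI against Sham and -0.31 in GMTT against GPI; -1.24 and 0.79 with library sizes only, both called).

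Of the remaining chains, Col28a1, known from the sheath around peripheral nerve in mice, had 0.138, 0.112 and 0.111 FPKM in GMTT, 0.469, 0.737 and 0.734 in GPI, and 0.0791, 0.0600 and 0.0955 in Sham. It rose by 3.02 (SE 0.31) in GPI against Sham, fell by 2.40 (SE 0.28) in GMTT against GPI and was not called in GMTT against Sham (0.62, SE 0.39). Col26a1 had 0.856, 1.12 and 0.928 FPKM in GMTT, 0.802, 1.38 and 0.948 in GPI, and 0.339, 0.600 and 0.453 in Sham. It rose by 1.04 (SE 0.22) in GMTT against Sham and was 1.16 (SE 0.25) in GPI against Sham, a value of 0.07 and not called with library sizes only; it was not called in GMTT against GPI (-0.11; 0.99 and called with library sizes only). The 5 Schwann cell markers took 0.00695% to 0.00733% in GMTT, 0.00494% to 0.00516% in GPI and 0.00692% to 0.00744% in Sham of the counts. Taken singly, 3 rose and 2 fell in GPI against Sham (40.1% and 48.1% of all genes), also with library sizes only (22.1% and 70.3%). Their log2 fold changes ran from -1.46 to 5.48, with a median of 2.12 (1.02 with library sizes only). Their part in the values of these chains was not tested.

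Most genes that fold, modify and cross-link collagen rose in GMTT against Sham. Of 32 matched genes of 33 listed, 24 rose and 1 fell (29.5% and 28.3% of all genes), with a median log2 fold change of 0.34 against 0.00 for all genes tested. The lysyl oxidases Loxl2 and Lox, which cross-link collagen outside the cell, rose by 1.32 (SE 0.06) and 1.58 (SE 0.12). Tll1, a procollagen proteinase, rose by 2.16 and P4ha2, a prolyl hydroxylase subunit, by 0.87. The gene that fell was Ppib, a prolyl isomerase of the endoplasmic reticulum, at -0.27 (SE 0.05).

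In GPI against Sham 20 of these genes rose and 6 fell on the TMM scale (40.1% and 48.1% of all genes), with a list median of 0.65 against -0.19 for all genes. With library sizes only 6 rose and 22 fell (22.1% and 70.3% of all genes), and the list median turned to -0.45 against -1.28. Loxl2, P4ha2 and Tll1 rose by 1.92, 2.77 and 3.76, and by 0.82, 1.68 and 2.67 with library sizes only, and Ppib fell by 1.64. Against GPI, GMTT had 12 higher and 16 lower (45.7% and 40.2% of all genes; list median -0.16), or 28 higher and 4 lower with library sizes only (72.2% and 18.9%; list median 0.94). On the TMM scale Ppib rose by 1.37 and P4hb, protein disulphide isomerase, by 0.67, while P4ha2 and the collagen galactosyltransferase gene Colgalt2 fell by 1.90 and 2.17. Of the 10 listed collagen receptors 9 were tested. Against Sham, GMTT had 7 of them higher (29.5% of all genes), Gp6 included, and the other 2 stood at 0.20 and 0.04 (Itga2 and Itga10, integrin chains). The collagen-sensing kinase Ddr1 rose by 1.31 (SE 0.11), and the integrin chains Itga11, Itgb1 and Itga1 rose by 0.40, 0.27 and 0.63. In GPI against Sham 6 receptors rose and 2 fell (40.1% and 48.1% of all genes), against 3 and 5 with library sizes only (22.1% and 70.3%); Ddr1 and Itga1 rose by 3.13 and 2.27, and Itgb1 by 1.19 (0.10 with library sizes only). Gp6, the collagen receptor of platelets, had 2214 counts over the GMTT libraries, 1 over GPI and 1690 over Sham; the GPI rate was 0.00113 times that of Sham (95% counting interval 2.87e-05 to 0.00632).

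Connective tissue markers were compared beside the chains, since they mark cells known to make fibrillar collagen. The 7 fibroblast markers took 0.163% to 0.175% in GMTT, 0.0944% to 0.0956% in GPI and 0.0764% to 0.0796% in Sham of the counts and the 5 tendon and synovium markers 0.0265% to 0.0285% in GMTT, 0.0342% to 0.0356% in GPI and 0.00450% to 0.00499% in Sham. Taken singly, 3 fibroblast markers rose and 4 fell in GMTT against GPI (45.7% and 40.2% of all genes). With library sizes only 5 rose and 1 fell (72.2% and 18.9%). In GPI against Sham 5 rose and 2 fell (40.1% and 48.1%), or 4 and 3 with library sizes only (22.1% and 70.3%). Against Sham, GMTT had 5 of 7 fibroblast markers higher and 1 lower and 5 of 5 tendon and synovium markers higher, and 1 of 9 osteoblast and osteocyte markers higher and 6 lower (29.5% of all genes higher and 28.3% lower), among the last Mepe at -1.08 and Dmp1 at -1.15. The fibroblast matrix gene Dpt rose by 2.52 and Postn, a matrix protein of healing tissue, by 1.87 in GMTT against Sham. In GPI against Sham all 9 osteoblast and osteocyte markers fell, by 0.43 to 6.11 (48.1% of all genes lower), while Col1a1 and Col1a2 were slightly higher on the TMM scale and lower with library sizes only. The 8 erythroid markers took 4.07% to 4.47% in GMTT, 0.103% to 0.112% in GPI and 7.59% to 8.53% in Sham, the 5 adipocyte markers 0.0160% to 0.0163% in GMTT, 0.0244% to 0.0255% in GPI and 0.00741% to 0.00786% in Sham, and the 7 chondrocyte markers 0.00498% to 0.00564% in GMTT, 0.00245% to 0.00254% in GPI and 0.00293% to 0.00308% in Sham, with 1 chondrocyte marker at 0 in GPI. Only 5 chondrocyte markers were tested. In GPI against Sham 3 of them rose and 1 fell on the TMM scale (40.1% and 48.1% of all genes). With library sizes only 0 rose and 3 fell (22.1% and 70.3%). What part these cells had in the collagen values was not tested.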

How the data were processed

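The members, gene lists and tests were chosen with earlier results of these data known. The authors deposited a table of raw read counts per gene with gene lengths, and a table of FPKM values (counts per length, scaled by the authors with 1 constant a library). Per the submitters' processing notes, mRatBN7.2 was the build used. Which programs aligned and counted the reads, and with which strand setting, is not given in the sources used here. Over genes with a mean above 50 counts, each deposited FPKM equalled its count over length and 1 library constant, with a largest relative deviation of 5.11e-15. Libraries were grouped by the labelled treatment. Counts were filtered with filterByExpr (minimum count 10), TMM-scaled and fitted over all 9 libraries with group as the term in edgeR 4.0.16 (R 4.3.3, limma 3.58.1) by a robust quasi-likelihood test, 2-sided. Adjusted p-values run over all 15936 genes tested. The median biological coefficient of variation was 5.09%, and libraries of 1 group differed beyond sampling noise (chi-square per degree of freedom 1.99 to 5.17). Scripts were tested on simulated data.

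Any chain could be named. Values in every library are given for Col1a1, Col3a1 and Col12a1, for the 2 chains of highest mean in each structural class, and for the 3 highest and 3 lowest called fold changes in each comparison; of the other lists, up to 4 called genes of smallest p. Itga2 and Itga10 and, in GMTT against Sham, Ppib were named after their values were seen. Ratios of chain pairs were compared by an exact permutation test (scipy 1.17.1). Rate ratios of genes with few counts have exact 95% counting intervals. Alternatives were other scalings, filters and sample sets, a replicate block, DESeq2 1.42.0, a 2-fold minimum, leaving out each library in turn, and limma on the deposited FPKM with a pseudocount of 1 or 0.1 before taking log2. Figures were drawn with matplotlib 3.10.9.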

Additional observations from a re-analysis of the deposited data

How the results depend on the processing

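Library sizes only, in place of TMM, gave 9 lower chains in GPI against Sham and 20 higher and 14 lower in GMTT against GPI. It reversed Col1a1 (-0.88), Col1a2 (-0.85), Col8a2 (-0.99), Col6a5 (-0.96), Col27a1 (-1.03), Col20a1 (-0.34) and Col9a2 (-0.049) in GPI against Sham. In GMTT against GPI it reversed Col3a1 (0.61), Col12a1 (0.47), Col6a3 (0.57), Col5a2 (0.99), Col6a1 (0.66), Col6a2 (0.77), Col5a1 (0.95), Col18a1 (0.38), Col20a1 (0.25), Col25a1 (0.79) and Col26a1 (0.99). The shift of all genes by -1.09 and 1.10 is part of that scaling. A test against a 2-fold minimum left 0 chains higher (8 without it, by edgeR or DESeq2) and 17 lower in GMTT against GPI, and 13 higher and 1 lower in GMTT against Sham, since it asks for a larger change. The share of all genes that passed this test was not counted, so these numbers have no background beside them. The 4 chains lower in GMTT against Sham became 2 with DESeq2 and 2 with limma on log2(FPKM + 1), and the cause was not tested. With at least 5 CPM in 3 libraries 1 was left, since that filter let only 29 chains be tested. All 29 kept their direction and call in that comparison, so no call was lost there. The other counts stayed within 1.5 times.

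Leaving out 1 library at a time gave 30 to 31 higher and 3 lower chains in GPI against Sham, 8 higher and 25 to 27 lower in GMTT against GPI, and 28 to 29 higher and 2 to 5 lower in GMTT against Sham, with 2 lower without Sham replicate 2 or GMTT replicate 1. The log2 difference in the ratio of Col3a1 to Col1a1 ran from 2.31 to 2.36, -0.87 to -0.82 and 1.47 to 1.52 in the same order of comparisons, at p = 0.2 each, the smallest exact permutation p with 1 library less. Of 2251 values of single chains under the alternatives, 2150 kept direction and call, 74 lost the call, 9 gained one and 18 reversed.

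Libraries with the same number correlated at -0.146 to 0.0614 in their deviations from the group means. These values show no pairing by number, but 3 libraries a group cannot exclude one. With the replicate block the calls of all 38 chains were as before, at 30 higher and 3 lower, 8 and 26, and 28 and 4. The values of Col9a2, Col9a3, Col19a1 and, in the injured groups, Col6a4 rest on few reads, and small differences in them were not detectable at this depth.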
